A study of Mus musculus with 126 samples.

Results

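The sodium pump genes described here are 7 genes of salt and water transport in the endolymphatic sac: the beta subunit genes Atp1b1, Atp1b2 and Atp1b3, the FXYD regulator genes Fxyd3, Fxyd5 and Fxyd6, and the cotransporter gene Slc12a2. They were taken by symbol from the 48490 genes of a table of single-cell expression, and the list was set with earlier results of these data known. Slc12a2 is not a pump subunit and was included as a partner of the pump in salt secretion. The table covers 126 cells of the mouse inner ear at E14.5, of which 33 came from wild-type sacs and 93 from sacs heterozygous for Sox9 Y440X, called mutant below. The Y440X allele carries a stop codon in Sox9, a transcription factor gene. The labels give no further allele, treatment or Cre driver for either group.

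The sodium pump, or Na,K-ATPase, moves sodium out of a cell and potassium into it at the cost of ATP. A catalytic alpha subunit does the transport, a beta subunit brings it to the membrane and tunes it, and small single-span FXYD proteins adjust its affinity and rate in a tissue-specific way. The cotransporter NKCC1, encoded by Slc12a2, uses the sodium gradient made by the pump to carry chloride and potassium into secretory epithelia. The endolymphatic sac takes part in setting the volume and ion content of endolymph, the fluid that bathes the hair cells. Its epithelium holds mitochondria-rich cells directed by the transcription factor Foxi1, and other epithelial cells. Aldh1a1 and Aldh1a3 encode enzymes that make retinoic acid.

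Expression was measured as FPKM, a fragment count divided by transcript length and by the mapped fragments of each cell, by the plate-based full-length method Smart-seq2. A gene at 1 FPKM or more is called detected. Cells with Foxi1 at 10 FPKM or more are called Foxi1-high. The lowest Foxi1 value inside this class was 28.2 FPKM and the highest outside it was 0.989 FPKM. Cells below that level with Epcam, an epithelial adhesion gene, at 1 FPKM or more are called Foxi1-low epithelial cells. They were split by whichever of Aldh1a1 and Aldh1a3 was higher, provided that it was detected. Among wild-type cells, 9 were Aldh1a1-dominant, 16 Aldh1a3-dominant, 2 had neither gene, 5 were Foxi1-high and 1 was Epcam-negative. Among mutant cells the numbers were 32, 34, 4, 11 and 12 in the same order. Most cells of this split had 1 of the 2 genes alone, but Aldh1a1 and Aldh1a3 were both detected in 12 of the 97 Foxi1-low epithelial cells. In the wild type, 4 of the 16 Aldh1a3-dominant cells also had Aldh1a1 detected.

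The labels name no animal, so each genotype counts as 1 sample and no test between genotypes or cell classes was made. Spreads are SDs over cells, and intervals on shares of cells are exact Clopper-Pearson 95% intervals that cover counting error only. A Y-linked transcript was present in 32 of 33 cells labelled wild type but in 4 of 93 labelled mutant, while Xist was detected in 0 and 81 cells respectively. Sex thus moved with genotype, and its part in any genotype difference cannot be told apart from that of the allele. The 4 mutant cells that carried a Y-linked transcript were 2 Aldh1a3-dominant and 2 Foxi1-high cells. The detection counts of Fxyd3 in these classes, those of Fxyd1 in Aldh1a3-dominant cells and some Foxi1-high values are given with and without them. The mutant Foxi1-high relative differences of Fxyd3, Atp1b3, Sgk1, Slc12a7, Fxyd1 and Stk39 are given with these cells included. All mutant cells and 1 wild-type cell have titles that begin with P9, and the other 32 wild-type cells have P10. What the prefixes stand for is not stated. The 4 mutant cells with Y-linked transcripts are titled P9-D12, P9-E12, P9-F12 and P9-G12, and the P9-titled wild-type cell is P9-H12. Fxyd3 was detected in each of them. Whether the genotype labels of these cells hold was not tested. Because 1 wild-type cell is all that shares a prefix with the mutant cells, no comparison within a prefix was possible. The read depth is unknown. The number of genes listed above 0 had a median of 5329 in wild-type cells (range 2189 to 6493) and 4423 in mutant cells (range 2035 to 9358). All 6 epithelial markers examined were detected in at least 50% of the Foxi1-low epithelial cells of both genotypes. Of 7 markers of mitochondria-rich cells, 3 reached that share in the wild-type Foxi1-high cells and 6 in the mutant ones, so this class is named by its rule alone.

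Coordinates are those of the mouse build mm10. Atp1b1 (ENSMUSG00000026576.12) lies on the minus strand at chr1:164437109-164458355, Atp1b3 (ENSMUSG00000032412.8) on the minus strand at chr9:96332655-96364442, and Fxyd3 (ENSMUSG00000057092.12) on the minus strand at chr7:31068172-31076704. Atp1b1 shares 617 bases with Nme7 on the other strand, and Fxyd3 shares 2764 bases with Lgi4 on the other strand. Strand use in the counting is not given in the sources used here. Lgi4 reached at most 1.98 FPKM in any cell, whereas Nme7 reached 237 FPKM, so reads of Atp1b1 and Nme7 cannot be told apart with certainty. The promoters of the 3 members that carry most of the signal are shown because the beta and FXYD genes of these cells differ in how widely they were detected. Each stretch is the 250 bases before a RefSeq transcription start (GRCm38.p6, 5′ to 3′ on the minus strand). Capitals mark matches on either strand to 5 motifs. The first is a core bound by SOX factors, ACAAT. The second is another form of that core, ACAAAG. The third is the TATA box, searched as TATAAA. The fourth is the GC box, searched as GGGCGG. The fifth is the CCAAT box, searched by the letters of its name. No 2 marked matches overlap.
Fxyd3, chr7:31076698-31076947: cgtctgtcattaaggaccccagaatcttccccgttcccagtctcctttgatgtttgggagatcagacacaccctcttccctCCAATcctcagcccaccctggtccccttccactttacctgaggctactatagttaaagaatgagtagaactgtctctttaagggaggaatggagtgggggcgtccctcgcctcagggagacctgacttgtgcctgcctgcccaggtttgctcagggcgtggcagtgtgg
Atp1b3, chr9:96364432-96364681: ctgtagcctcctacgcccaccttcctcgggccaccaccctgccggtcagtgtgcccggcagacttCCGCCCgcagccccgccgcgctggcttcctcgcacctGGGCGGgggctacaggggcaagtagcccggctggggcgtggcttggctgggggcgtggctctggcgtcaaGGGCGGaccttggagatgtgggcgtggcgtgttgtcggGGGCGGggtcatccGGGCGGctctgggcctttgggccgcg
Atp1b1, chr1:164458356-164458605: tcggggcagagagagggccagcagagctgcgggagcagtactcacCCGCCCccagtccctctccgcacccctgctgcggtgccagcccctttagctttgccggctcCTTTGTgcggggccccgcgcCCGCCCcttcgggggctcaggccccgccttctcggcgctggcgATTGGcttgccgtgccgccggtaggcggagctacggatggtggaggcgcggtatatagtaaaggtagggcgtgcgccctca
The Fxyd3 stretch held 1 CCAAT box and no match to the other 4 motifs, with a GC content of 55.2%. The Atp1b3 stretch held 5 GC boxes and no match to the others, with a GC content of 73.6%. The table holds another Atp1b3 start, with the stretch chr9:96363716-96363965 before it, which held 1 SOX core of the second form, no GC box and a GC content of 76.8%. The first is shown because the bases after it occur in a GENCODE transcript of Atp1b3, while those after the other occur in 0. The Atp1b1 stretch held 2 GC boxes, 1 CCAAT box and 1 SOX core of the second form, with a GC content of 70.4%. Among 32851 promoters of the same length, 27.7% held the first SOX core, 16.5% the second, 12.4% the TATA box, 32.7% the GC box and 33.8% the CCAAT box, and the median GC content was 52.4%. A match is a string of letters and not a site shown to be bound. Of the 7 members, 5 had a promoter in the RefSeq table.

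Among the beta subunits, Atp1b3 was the main form in most cells of the Aldh1a1-dominant, Aldh1a3-dominant and Foxi1-high classes. Atp1b3 encodes the beta3 subunit, which is widespread across tissues, and Atp1b1 encodes beta1, a form typical of transporting epithelia. FPKM is per length, so levels of different genes may be compared within a cell. Atp1b3 had the highest FPKM of the beta genes in 23 of 27 Foxi1-low epithelial cells of the wild type (85.2%, interval 66.3 to 95.8%) and in 51 of 70 of the mutant (72.9%, 60.9 to 82.8%). Atp1b1 was the highest in 2 of 27 and 7 of 70 of these cells. Neither these genes nor Atp1b2 was detected in 2 of 27 and 11 of 70. In the Foxi1-high cells Atp1b3 led in 5 of the 5 wild-type and 7 of the 11 mutant cells, while Atp1b1 led in 3 of the other 4 mutant cells. Without the 2 mutant cells with Y-linked transcripts the counts were 7 of 9 and 1 of 9.

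Atp1b3 differed most between the Aldh1a classes of the wild type. In the 9 wild-type Aldh1a1-dominant cells it ranged from 71.8 to 697 FPKM with a median of 197 FPKM. In the 16 wild-type Aldh1a3-dominant cells it ranged from 0 to 361 FPKM with a median of 24.2 FPKM, and 12 of them had it detected (75%, 47.6 to 92.7%). The ranges overlap, yet no Aldh1a1-dominant cell was below 71.8 FPKM, whereas 4 Aldh1a3-dominant cells were below 1 FPKM. Mean log2(FPKM + 1) was 7.58 ± 0.89 (SD over 9 cells) against 4.26 ± 3.09 (SD over 16 cells). To set such a difference against the rest of the transcriptome, the median difference of all genes compared was subtracted, which gives a relative difference. Genes were compared where the detected shares of both groups averaged at least 10%, and a relative difference of 1 or more on the log2 scale, 2-fold, is called past the fold.

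For Atp1b3, the relative difference of Aldh1a3-dominant against Aldh1a1-dominant wild-type cells was -3.28, the 63rd lowest of 9987 genes. An Aldh1a3-dominant cell was the higher in 16% of all pairs of cells. Of the 7 members, 3 passed the filter on low values in this comparison, and 1 of them, Atp1b3, was past the fold and lower. The background was 14.7% of all compared genes lower and 13.4% higher. With 9 cells in the smaller class, a 2-fold difference was therefore common among genes at large. The relative difference of Atp1b3 was between -4.12 and -1.65 under all 14 other settings tried. The setting that left out mutant cells with Y-linked transcripts removed no cell here and repeats the main value. Of 7 markers of mitochondria-rich cells, 1 was detected in at least 50% of the cells of either class, with a summed level of 32.2 to 290 FPKM (median 144) in Aldh1a1-dominant and 0 to 259 FPKM (median 22.1) in Aldh1a3-dominant cells, and Foxi1 and Slc26a4 were at 0 in both. Of 4 melanocyte markers, 0 and 1 reached that share, with 0 to 82.4 FPKM (median 8.53) and 0 to 275 FPKM (median 52.98), and Tyr and Mitf were at 0. Their part in the Atp1b3 difference was not tested.

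The same contrast was smaller in mutant cells. Atp1b3 ranged from 0 to 365 FPKM with a median of 87.5 FPKM in 32 mutant Aldh1a1-dominant cells, and from 0 to 304 FPKM with a median of 40.4 FPKM in 34 Aldh1a3-dominant cells. It was detected in 27 of 32 (84.4%, 67.2 to 94.7%) and 23 of 34 (67.6%, 49.5 to 82.6%) of them. Both classes thus spanned nearly the same range. The relative difference was -1.24, and it stayed past the fold in 11 of 14 other settings. The setting that left out the wild-type cell titled P9 removed no cell here and repeats the main value. Whether the contrast differs between the genotypes was not tested.

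Set by genotype instead, Atp1b3 was lower in mutant Aldh1a1-dominant cells than in wild-type ones and close to equal in Aldh1a3-dominant cells. Mean log2(FPKM + 1) was 5.40 ± 2.69 (SD over 32 cells) against 7.58 ± 0.89 (SD over 9 cells), a relative difference of -1.97. Of the 32 mutant cells, 5 were below 1 FPKM, while all 9 wild-type cells had it detected. In Aldh1a3-dominant cells the means were 4.10 ± 3.14 (SD over 34 cells) and 4.26 ± 3.09 (SD over 16 cells), a relative difference of 0.07. Other settings gave -0.21 to 1.32 for the latter, the highest among cells with 3000 to 5000 listed genes. Over all Foxi1-low epithelial cells the relative difference of mutant against wild type was -0.79, and among cells with 3000 to 5000 listed genes it was 0.26.

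Atp1b1 was detected in about as many cells as it was missed. In Foxi1-low epithelial cells it reached 1 FPKM in 14 of the 27 wild-type cells (51.9%, 31.9 to 71.3%) and 31 of the 70 mutant cells (44.3%, 32.4 to 56.7%), with highest values of 48.8 and 61.7 FPKM. Its relative difference by genotype was -0.25. In the 5 wild-type Foxi1-high cells it was at 0.18, 7.60, 23.2, 53.5 and 72.04 FPKM. In the 11 mutant Foxi1-high cells it ranged from 0 to 204 FPKM with a median of 12.6 FPKM, and 8 had it detected. The Foxi1-high cells thus covered the range of the other epithelial cells and reached above it.

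Relative to the Foxi1-low epithelial cells, Atp1b1 was higher in the Foxi1-high cells by 1.24 in the wild type and by 1.41 in the mutant on the log2 scale. In the wild type, 4 of the 7 members passed the filter and 2 were past the fold and higher, Atp1b1 and Atp1b3, beside 16% of all compared genes higher and 14.8% lower. All 5 of these Foxi1-high cells had Aldh1a1 above Aldh1a3, whereas 16 of the 27 Foxi1-low epithelial cells were Aldh1a3-dominant. Mean log2(FPKM + 1) of Atp1b3 was 7.19 in the Foxi1-high and 7.58 in the Aldh1a1-dominant cells. Atp1b3 was thus not higher than in that class. The mean of Atp1b1 was 31.3 FPKM in the Foxi1-high and 17.9 FPKM in the Aldh1a1-dominant cells. The part of class makeup in these differences was not tested. In the mutant, 3 members passed the filter, with Atp1b1 higher and Fxyd3 lower, beside 13.8% of genes higher and 9.0% lower. Without the 2 Foxi1-high mutant cells with Y-linked transcripts, Atp1b1 was detected in 6 of 9 cells, its mean was 20.1 FPKM in place of 40.7 FPKM and its relative difference was 0.77, no longer past the fold. In the wild type it was 0.40 without cells above 6000 listed genes. The Foxi1-high cells also listed more genes, with medians of 5983 in the wild type and 5068 in the mutant against 5019 and 4376, and the part of this in the difference was not tested. The relative differences of Atp1b1 ranged from 0.40 to 1.64 in the wild type and from 0.22 to 1.85 in the mutant over the other settings. For Atp1b3 the relative difference was 1.14 in the wild type and 0.07 in the mutant, and the mutant value was -2.16 among cells with 3000 to 5000 listed genes.

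Atp1b2, which encodes the beta2 subunit known from glia and neurons, was detected in 6 cells, 2 of the 33 wild-type and 4 of the 93 mutant ones. The 3 Foxi1-low epithelial cells with it were a wild-type Aldh1a1-dominant cell at 41.98 FPKM and 2 mutant Aldh1a3-dominant cells at 11.3 and 3.26 FPKM. The other 3 were Epcam-negative, at 4.83 FPKM in the wild type and at 30.2 and 39.2 FPKM in the mutant. The count of 0 among 32 mutant Aldh1a1-dominant cells allows a share as high as 9.38% where 3 counts of the total are taken as the limit, and the exact interval reaches 10.9%. Atp1b4, the remaining beta gene, was detected in 0 cells.

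**Figure D1:**
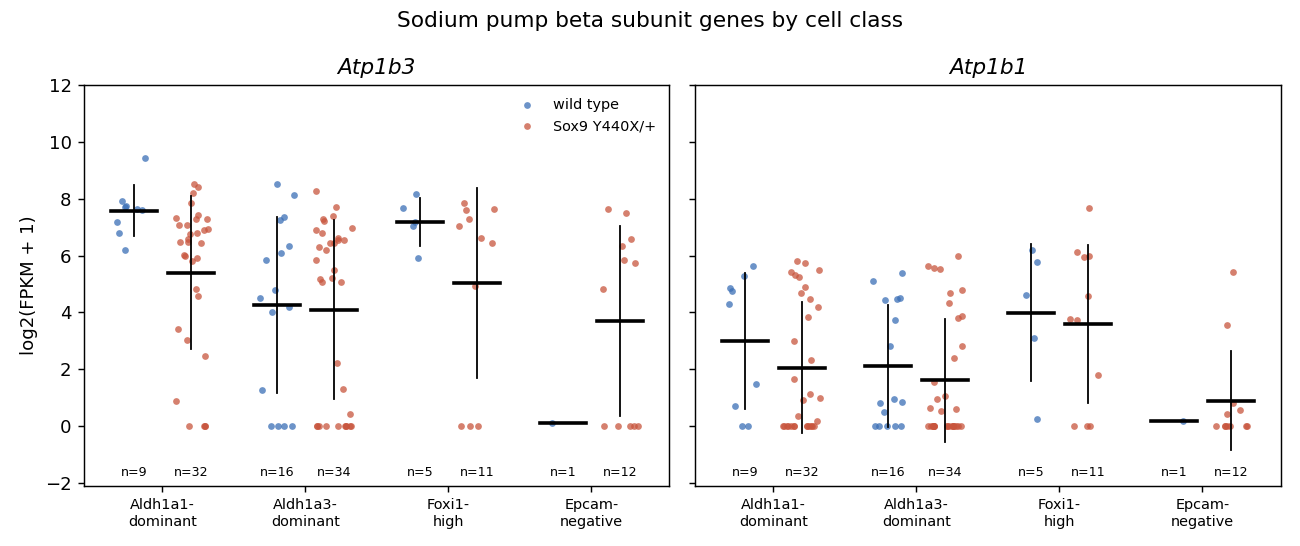
Log2(FPKM + 1) of Atp1b3 and Atp1b1 in single cells by class, with wild-type cells in blue and mutant cells in red. Each point is a cell, the thick line is the mean and the thin line the SD over cells, and the 9 wild-type Aldh1a1-dominant cells all lie above 6 for Atp1b3, while the mutant Aldh1a1-dominant cells and the Aldh1a3-dominant cells of both genotypes reach down to 0.

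Among the FXYD regulators, Fxyd3 showed the largest difference of any member. Fxyd3 encodes a regulator found in epithelia and in tumours derived from them. It was the highest FXYD gene in 26 of 27 Foxi1-low epithelial cells of the wild type (96.3%, 81.03 to 99.9%) and in 50 of 70 of the mutant (71.4%, 59.4 to 81.6%). In the wild type its values ran from 25.9 to 2070 FPKM with a median of 580 FPKM, and 27 of 27 cells had it detected. In the mutant they ran from 0 to 614 FPKM with a median of 127 FPKM, and 51 of 70 cells had it detected (72.9%, 60.9 to 82.8%). The lowest wild-type value came from the single P9-titled wild-type cell, and without that cell the lowest was 38.4 FPKM.

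Mean log2(FPKM + 1) of Fxyd3 was 5.33 ± 3.45 (SD over 70 cells) in mutant and 8.92 ± 1.47 (SD over 27 cells) in wild-type cells. The relative difference was -3.40, the 7th lowest of 9820 genes, and a mutant cell was the higher in 12.3% of all pairs of cells. Of the 7 members, 4 passed the filter in this comparison and 1, Fxyd3, was past the fold and lower, beside 6.33% of all compared genes lower and 3.07% higher. The other settings gave -4.13 to -2.06. The mutant cells of this class listed fewer genes, with a median of 4376 against 5019. Among cells with 3000 to 5000 listed genes, the transcript was found in 12 of the 12 wild-type cells and 36 of the 48 mutant cells. Without the 2 mutant cells with Y-linked transcripts, 49 of 68 mutant cells had it detected. Marker lists of other cell types also moved with genotype in these cells. Of 5 glial and neural crest markers, 2 were detected in at least 50% of wild-type and 0 in at least 50% of mutant cells, with a summed level of 0 to 136 FPKM (median 32.8) against 0 to 72.7 FPKM (median 0), and Foxd3 was at 0 throughout. Of 4 melanocyte markers, 1 against 0 reached that share, with a summed level of 0 to 275 FPKM (median 40.9) against 0 to 140 FPKM (median 0), and Tyr was at 0 throughout. Of the 7 mitochondria-rich markers, 1 reached that share in each genotype, with a summed level of 0 to 965 FPKM (median 45.95) against 0 to 1075 FPKM (median 4.45), and Slc26a4 was at 0 throughout. Blood markers had a median of 0 in both genotypes, with highest sums of 3.27 FPKM in the wild type and 56220 FPKM in a mutant Aldh1a3-dominant cell. The part of these lists in the Fxyd3 difference was not tested.

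**Figure D2:**
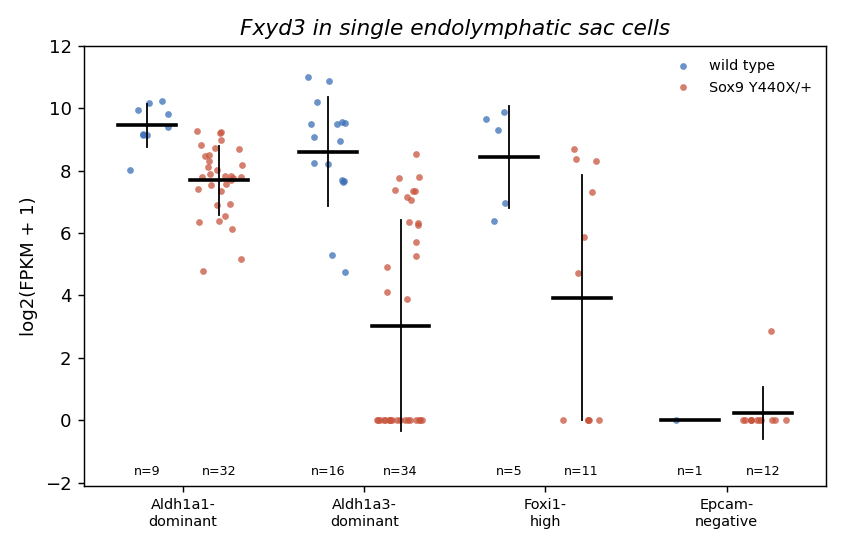
Log2(FPKM + 1) of Fxyd3 in single cells by class, with wild-type cells in blue and mutant cells in red. Each point is a cell, the thick line is the mean and the thin line the SD over cells, and 18 of the 34 mutant Aldh1a3-dominant cells lie at or near 0, whereas every wild-type cell with Epcam lies above 4.

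The genotype difference of Fxyd3 was seen in both Aldh1a classes, and its form differed between them. In Aldh1a1-dominant cells no cell of either genotype lacked Fxyd3, which was detected in 9 of 9 and 32 of 32 cells (interval 89.1 to 100% for the latter). Its values ran from 257 to 1215 FPKM with a median of 682 FPKM in the wild type, and from 26.5 to 614 FPKM with a median of 225 FPKM in the mutant. The groups overlapped between 257 and 614 FPKM. The relative difference was -1.54, and a mutant cell was the higher in 7.29% of pairs. Of the 3 members that passed the filter, Atp1b3 and Fxyd3 were past the fold and lower, beside 12.3% of genes lower and 10.5% higher.

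In Aldh1a3-dominant cells it was found in 16 of the 16 wild-type cells (79.4 to 100%) but in 16 of the 34 mutant cells (47.1%, 29.8 to 64.9%). The wild-type values ran from 25.9 to 2070 FPKM with a median of 518 FPKM. The mutant values ran from 0 to 371 FPKM with a median of 0, and the median of the 16 cells with it detected was 107 FPKM. Mutant cells with the transcript thus overlapped the lower wild-type values, and the 18 without it lay below every wild-type cell. Mean log2(FPKM + 1) was 3.03 ± 3.39 (SD over 34 cells) against 8.61 ± 1.75 (SD over 16 cells), a relative difference of -5.35, the third lowest of 9954 genes.

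Of the 4 members that passed the filter among Aldh1a3-dominant cells, 1 was past the fold, Fxyd3, beside 10.6% of genes lower and 6.08% higher. The relative difference of Fxyd3 ranged from -6.89 to -3.43 over 13 other settings. The 2 mutant cells with Y-linked transcripts had 220 and 371 FPKM, and without them 14 of 32 cells had Fxyd3 detected (43.8%, 26.4 to 62.3%), with a highest value of 216 FPKM. Within 3000 to 5000 listed genes the counts were 8 of the 8 wild-type cells and 14 of the 25 mutant cells. The median number of listed genes was 4400.5 in the mutant cells with Fxyd3 and 4264.5 in those without. Both sets of cells thus listed about as many genes. Atp1b3 was detected in 12 of the 16 mutant cells with Fxyd3 and in 11 of the 18 without. Leaving out the Y-linked cells made the former 10 of 14.

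Read across the classes within a genotype, the Aldh1a1-dominant and Aldh1a3-dominant medians of Fxyd3 were 682 and 518 FPKM in the wild type and 225 and 0 FPKM in the mutant. The relative difference of Aldh1a3-dominant against Aldh1a1-dominant cells was -0.81 in the wild type, which other settings placed between -1.34 and -0.32. In the mutant it was -4.60, the 7th lowest of 9559 genes, and between -6.26 and -2.31 under other settings. In the mutant, 4 members passed the filter and 2 of them, Atp1b3 and Fxyd3, were past the fold and lower, beside 9.12% of genes lower and 5.75% higher. The genotype by class difference was not tested. Over the 70 mutant Foxi1-low epithelial cells, Spearman's rho of Fxyd3 was 0.63 with Aldh1a1 and -0.67 with Aldh1a3, and over the 27 wild-type cells it was 0.43 and -0.33. These points share a table and a plate-based library method, and rho is given as a description. Aldh1a1 and Aldh1a3 also set the classes, so these values over pooled classes restate the class contrast. They give no separate support for it, and no value within a class is given.

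Mutant Aldh1a3-dominant cells that kept Oc90, the gene of the otoconial protein otoconin-90, had Fxyd3 more often. Fxyd3 was detected in 8 of 10 such cells with Oc90 (80%, 44.4 to 97.5%) and in 8 of 24 without (33.3%, 15.6 to 55.3%). The 2 cells with Y-linked transcripts both had Oc90, and leaving them out made the former 6 of 8 (75%, 34.9 to 96.8%). In mutant Aldh1a1-dominant cells the counts were 18 of 18 with Oc90 and 14 of 14 without. Split by Sox10, the gene of a SOX factor related to Sox9, Fxyd3 was detected in 4 of 4 mutant Aldh1a3-dominant cells with it and in 12 of 30 without. Of those 4 cells, 2 carried Y-linked transcripts, so 2 of 2 were left without them. Among mutant Foxi1-low epithelial cells with both Wnt6 and Wnt10a detected, 30 of 36 had Fxyd3 (83.3%, 67.2 to 93.6%), and among the others 21 of 34 did (61.8%, 43.6 to 77.8%). Without the Y-linked cells these were 29 of 35 and 20 of 33. The Wnt split pools the Aldh1a classes, and Fxyd3 was in 32 of 32 Aldh1a1-dominant but 16 of 34 Aldh1a3-dominant mutant cells. The class makeup of its 2 sides is not given, and its part in the difference was not tested. These splits were chosen with values of the same cells known, and the intervals of the Oc90 and Wnt splits overlap.

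**Figure D3:**
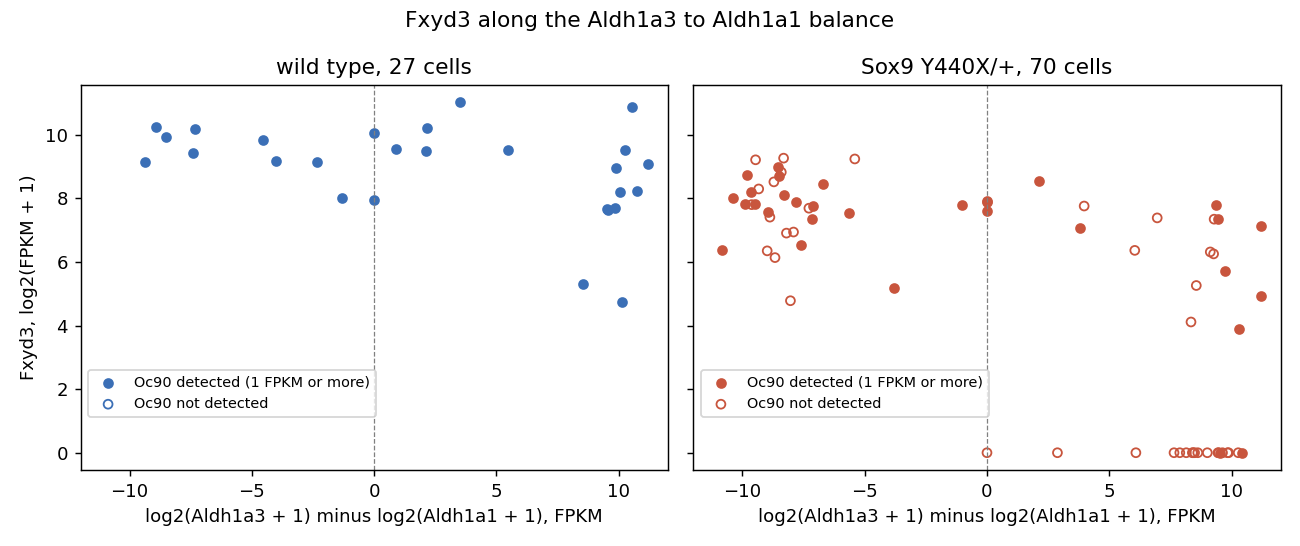
Fxyd3 as log2(FPKM + 1) against the difference of log2(Aldh1a3 + 1) and log2(Aldh1a1 + 1) in single Foxi1-low epithelial cells, for the wild type (left) and the mutant (right). Filled points are cells with Oc90 at 1 FPKM or more, open points cells without, and cells at 0 on the Fxyd3 axis are found in the mutant alone, mostly at the Aldh1a3 end, where 8 of 10 filled and 8 of 24 open points have Fxyd3 detected.

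In Foxi1-high cells Fxyd3 was at 82.7, 124, 630, 808 and 933 FPKM in the 5 wild-type cells. In the mutant it was detected in 6 of 11 cells (54.5%, 23.4 to 83.3%), at 25.2 to 415 FPKM, and in 4 of 9 without the 2 cells with Y-linked transcripts, which had 25.2 and 415 FPKM. All 5 wild-type cells thus had the transcript and 5 mutant cells did not. Against the Foxi1-low epithelial cells of the same genotype, the relative difference was -0.84 in the wild type and -1.64 in the mutant, the latter past the fold in 11 of 14 other settings. Leaving out the wild-type cell titled P9 and a Foxi1 threshold of 1 FPKM did not change the mutant cells used. The single wild-type Epcam-negative cell had Fxyd3 at 0, and 1 of the 12 mutant ones had it, at 6.33 FPKM.

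Fxyd5 and Fxyd6 were detected in few epithelial cells and in most Epcam-negative cells with mesenchymal markers. Fxyd5 encodes dysadherin, a regulator that also weakens cell adhesion, and Fxyd6 encodes phosphohippolin, known from the nervous system and the inner ear. In Foxi1-low epithelial cells Fxyd5 reached 1 FPKM in 1 of the 27 wild-type (3.70%, 0.0937 to 18.97%) and 2 of the 70 mutant cells (2.86%, 0.348 to 9.94%). The wild-type cell, at 155 FPKM, was Aldh1a3-dominant with Epcam, but 7 of 7 mesenchymal markers were detected in it and Fxyd6 was at 39.5 FPKM. Fxyd6 reached 1 FPKM in 2 of the 27 (7.41%, 0.910 to 24.3%) and 4 of the 70 (5.71%, 1.58 to 13.98%). Neither gene passed the filter in the genotype comparison, so no relative difference is given for it.

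The 13 Epcam-negative cells fell into 10 cells with at least 3 of 7 mesenchymal markers, which were 1 wild-type and 9 mutant cells, and 3 mutant cells with none of them. Among the 9 mutant cells with these markers, Fxyd5 was detected in 7, with a median of 148 and a highest value of 641 FPKM, and Fxyd6 in 7, with a median of 35.7 and a highest value of 102 FPKM. Slc12a2 was detected in 8 of the 9, with a median of 14.6 and a highest value of 43.6 FPKM. The wild-type cell had 83.03, 95.8 and 19.7 FPKM of Fxyd5, Fxyd6 and Slc12a2. The summed level of the 7 markers ran from 0 to 2132 FPKM (median 598) over the 12 mutant Epcam-negative cells and was 519 FPKM in the wild-type one, with Col1a1 at 0 in the latter. In Foxi1-low epithelial cells its median was 0 in both genotypes, with highest values of 1085 FPKM in the wild type and 94.7 FPKM in the mutant. In the 3 mutant cells without mesenchymal markers, each of the 3 genes was detected in 0 cells. Fxyd5 was the highest FXYD gene in 6 of the 12 mutant Epcam-negative cells and Fxyd6 in 2, and Fxyd5 and Slc12a2 were detected together in 7.

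Fxyd1, which encodes phospholemman, was the only other FXYD gene detected in more than a few cells. Aldh1a3-dominant cells had it in 6 of 16 wild-type cases and 11 of 34 mutant cases, against 0 of 9 and 2 of 32 for Aldh1a1-dominant cells. The relative difference was 2.67 in the wild type and 1.73 in the mutant. In the wild type, Fxyd1 passed the filter through the Aldh1a3-dominant cells alone. Without the mutant cells with Y-linked transcripts, 9 of 32 Aldh1a3-dominant cells had Fxyd1 and the relative difference was 1.49. In mutant Aldh1a3-dominant cells Fxyd1 was the highest FXYD gene in 6 of 34, Fxyd3 in 15, Fxyd6 in 1, and 12 had no FXYD gene detected. Without the Y-linked cells Fxyd3 was the highest in 13 of 32 and Fxyd1 in 6. In the 32 mutant Aldh1a1-dominant cells, Fxyd3 was the highest in all 32. Fxyd2 was detected in 2 cells, Fxyd4 in 3 and Fxyd7 in 0.

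Slc12a2 was scarce in the epithelium of both genotypes. In Foxi1-low epithelial cells it reached 1 FPKM in 3 of the 27 wild-type (11.1%, 2.35 to 29.2%) and 7 of the 70 mutant cells (10%, 4.12 to 19.5%), with highest values of 17.2 and 17.1 FPKM. Of these, 3 wild-type and 5 mutant cells were Aldh1a3-dominant and 0 and 2 were Aldh1a1-dominant. The relative difference by genotype was 0.07, within -0.42 and 0.34 under other settings. Of the Foxi1-high cells, 0 of the 5 wild-type and 1 of the 11 mutant ones had it, the latter at 3.50 FPKM. Slc12a2 lies on chromosome 18 of mm10 from 57878678 to 57946821 on the plus strand.

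**Figure D4:**
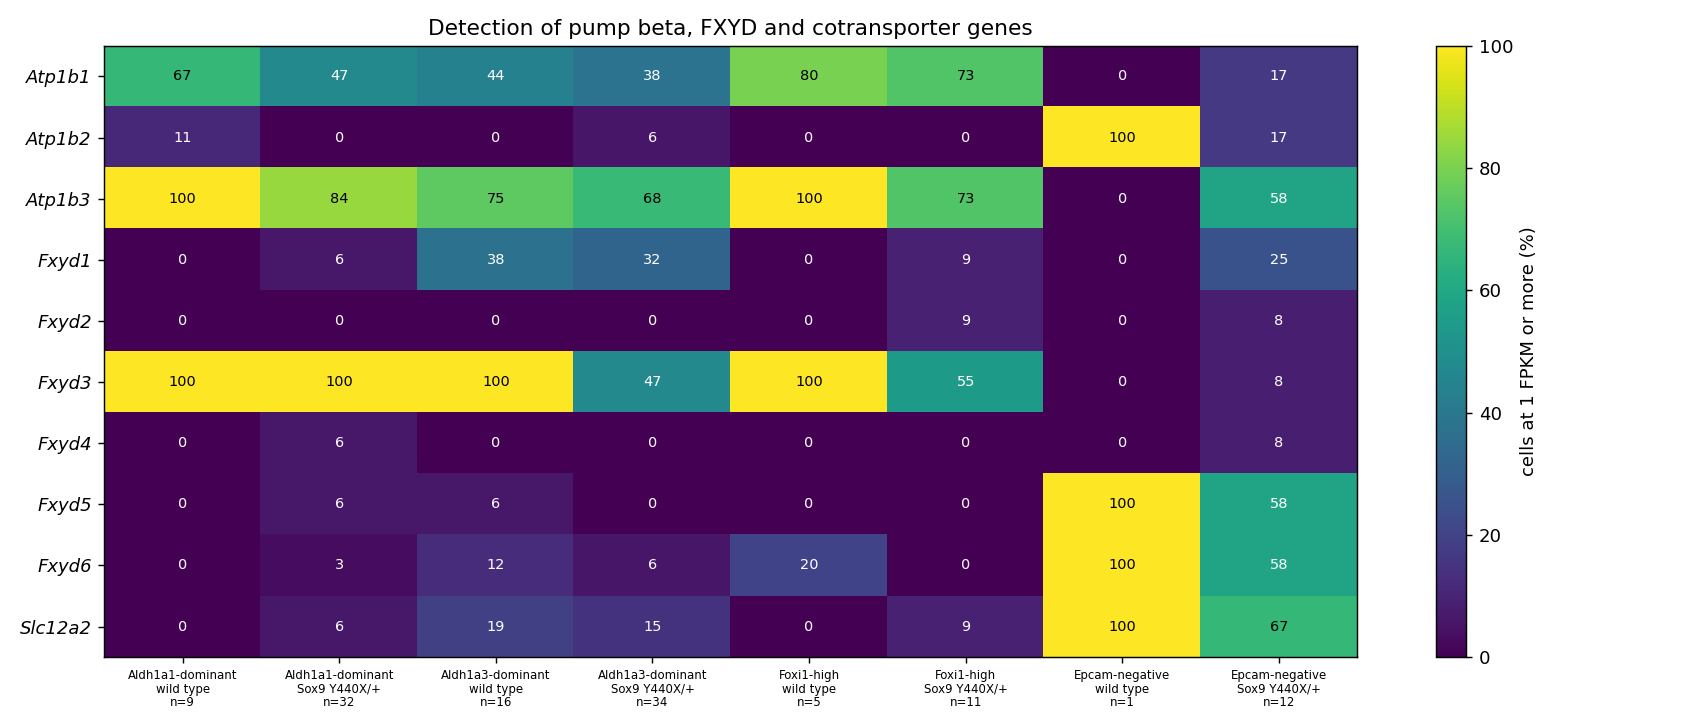
Share of cells with each gene at 1 FPKM or more, as a percentage written in each tile, for pump beta genes, FXYD genes and Slc12a2 (rows) by cell class and genotype (columns, with the number of cells). Fxyd3 is at 100 in the wild-type epithelial classes and at 47 in mutant Aldh1a3-dominant cells, while Fxyd5, Fxyd6 and Slc12a2 reach their largest shares in the Epcam-negative cells, of which the wild type has 1.

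The genes whose values most resembled a member's were ranked by Spearman's rho over the 70 mutant Foxi1-low epithelial cells, among 5418 genes detected in at least 20% of them. For Fxyd3 they were Perp (0.73), Pcolce (0.71) and Wfdc2 (0.70), with rho over the 27 wild-type cells of 0.57, 0.61 and 0.63. For Atp1b1 the nearest was Nme7 (0.69, and 0.66 in the wild type), the gene that overlaps it. Cnpy4 (0.45) and Nox3 (0.44) followed, at -0.15 and 0.26 in the wild type. For Atp1b3 the nearest were Ubb (0.50), Gpx4 (0.46) and Prmt2 (0.45), at 0.25, 0.06 and -0.45 in the wild type. The median rho over all ranked genes was 0.05 for Fxyd3, 0.03 for Atp1b1 and 0.04 for Atp1b3.

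A wider list of 45 genes of the pump, its regulators and partner transporters, the 7 members included, was read in the same comparisons. Of these, 31 were detected in at least 1 cell. By genotype, 16 were compared, beside 3.07% of all genes higher and 6.33% lower, and beside Fxyd3 the kinase gene Stk39 (SPAK, which activates NKCC1) was lower, at -1.27, and the kinase gene Sgk1 (which raises sodium transport) was higher, at 1.25. The share of cells with Stk39 was 40.7% in the wild type and 20% in the mutant. Within Aldh1a3-dominant cells 15 were compared, beside 6.08% of genes higher and 10.6% lower, and Stk39 was at -1.92, Wnk1, a kinase gene upstream of Stk39, at -1.19 and Sgk1 at 1.36. Within Aldh1a1-dominant cells 15 were compared, of which 2 were higher and 3 lower, beside 10.5% and 12.3% of genes, and the sodium channel gene Scnn1b was at -1.62, Sgk1 at 1.13 and Nedd4l, a ubiquitin ligase gene that acts on that channel, at 1.08. Between the Aldh1a classes, Scnn1b was lower in wild-type Aldh1a3-dominant cells, at -1.94, beside 14.7% of genes lower. It was detected in 33.3% of the 9 wild-type Aldh1a1-dominant cells and in 0 of the 16 Aldh1a3-dominant ones. Scnn1b thus passed the filter through the Aldh1a1-dominant cells alone. The same 9 cells entered its genotype value of -1.62, where 3.1% of the 32 mutant cells had it. The 2 Scnn1b values are therefore not separate results. Between the Aldh1a classes of the mutant, Wnk1 was at -1.48 and Stk39 at -1.07, beside 9.12% of genes lower.

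In the Foxi1-high cells of the wild type, 18 genes of the wider list were compared, and 8 were higher and 3 lower, beside 16% of all genes higher and 14.8% lower. In the mutant, 16 were compared, and 6 were higher and 1 lower, beside 13.8% and 9.0%. Slc9a3r1, the gene of the scaffold protein NHERF1, was at 2.86 and 2.66 in the respective genotypes, Wnk4 at 2.48 and 1.76, Nedd4l at 1.81 and 2.08, and the potassium channel gene Kcnq1 at 1.81 and 1.20. Without the mutant cells with Y-linked transcripts, Slc9a3r1 was at 2.17, Wnk4 at 1.04, Nedd4l at 1.82 and Kcnq1 at 0.61, the last no longer past the fold. Sgk1 was at 1.91 in the wild type and 0.24 in the mutant. The potassium chloride cotransporter genes Slc12a4 and Slc12a7 were at 1.06 and -1.14 in the wild type. Slc12a4 was detected in 0 of the 27 wild-type Foxi1-low epithelial cells, so it passed the filter through the Foxi1-high cells alone. In the mutant Slc12a4 did not pass the filter and Slc12a7 was at -0.50. Fxyd1 and Stk39 were the other wild-type genes past the fold and lower, at -1.91 and -1.48, against -0.76 and -0.23 in the mutant. In the wild type, Fxyd1 was detected in 6 of 27 Foxi1-low epithelial cells, all Aldh1a3-dominant, and in 0 of 5 Foxi1-high cells. It passed the filter through the Foxi1-low cells alone. Every wild-type Foxi1-high cell had Aldh1a1 above Aldh1a3, so nothing about that class is read from Fxyd1. The potassium channel gene Kcnj13 was detected in 5 of 11 mutant Foxi1-high cells and in 0 of 5 wild-type ones. Its relative difference in the mutant was 2.12, and 1.51 without the Y-linked cells, where 3 of 9 had it. Kcnj13 was detected in 0 of the 70 mutant Foxi1-low epithelial cells, so it passed the filter through the Foxi1-high cells alone.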

How the data were processed

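Single cells of the sac were profiled by Smart-seq2 without molecular identifiers. The authors deposited 1 table of FPKM values by gene and cell. Per the submitters' processing notes, Cufflinks, HTSeq, HISAT2, SAMtools 0.1.18 and the build mm10 were used, with no role or order stated. Strand setting, annotation release and read filters: not given in the sources used here. FPKM carries no read number, so depth is unknown, and genes listed above 0 stand in for it.

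Rows sharing an identifier were summed. No 2 cells had identical values, 0 cells were removed, and no doublet caller was run because it needs counts. Mean levels are on the log2(FPKM + 1) scale, and SDs are over cells (Python 3.11.15, numpy 2.4.6, pandas 2.3.3, scipy 1.17.1). The pseudocount of 1 makes differences of low genes too small. A relative difference is the difference of 2 group means less the median over all genes with a mean detected share of at least 10%. That median lay between -0.23 and 0.36. The calculation was tested on wild-type cells drawn with replacement, in which some widely detected genes were raised or lowered by a set factor. Genes detected in few cells were not altered, so the test does not cover changes in them. Where a count is 0 in 10 cells or more, the share allowed is 3 of the total. Overlapping genes were read from GENCODE M21 and promoters from RefSeq.

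All 7 members are named, as are the beta and FXYD genes, genes of the wider lists past the fold, and the 3 genes most correlated with a member detected in at least 20% of the ranked cells. Some genes of the wider lists are not reported here. The members, lists, splits and the Epcam requirement were chosen with earlier results of these data known. The dominance of Aldh1a1 or Aldh1a3 was set as the higher of the pair. The alternatives were the pseudocount, the detection level, the filter, the scaling, the cells used and the class thresholds.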

Additional observations from a re-analysis of the deposited data

How the results depend on the processing

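Under the alternatives run, no member past the fold in a comparison changed sign in it. Members short of the fold did so under several alternatives. Atp1b3 in mutant Foxi1-high cells kept its sign in 8 of 14, Slc12a2 by genotype in 11 of 14 and Atp1b1 by genotype in 12 of 14. For Atp1b1 by genotype in Aldh1a1-dominant cells, restriction to 3000 to 5000 listed genes gave 1.11 in place of -0.73. The values scored first were the relative differences of members, the counts of members past the fold and the shares of cells that a gene led. Read once per alternative, 485 were close to the main value and 21 moved. Some alternatives removed no cell of a comparison, so they repeated its main value and count as close. Leaving out mutant cells with Y-linked transcripts did so within the wild type and by genotype in Aldh1a1-dominant cells. Leaving out the wild-type cell titled P9 did so within the mutant and by genotype in Aldh1a1-dominant cells. A Foxi1 threshold of 1 FPKM did so in both genotypes. A relative difference was called close where it shifted by less than the larger SD over cells of the 2 groups. This limit is wide, and the change of Atp1b1 from -0.73 to 1.11 falls within it. The 21 were counts or shares, so the tally says little about how stable the relative differences are. For the relative differences of genes that are not members and the shares of cells with Fxyd3, Atp1b3 or Atp1b1 detected, 591 were close and 2 moved. The moved counts of members past the fold were as follows. For Aldh1a3-dominant against Aldh1a1-dominant wild-type cells the count of 1 became 2 with a pseudocount of 0.1, with rescaled cells, with 3000 to 5000 listed genes and with 4-fold dominance, and 3 without the Epcam requirement. In mutant cells the count of 2 became 1 with a pseudocount of 10, with the log2 of the mean FPKM and with 3000 to 5000 listed genes. By genotype with 3000 to 5000 listed genes, the count of 2 became 4 in Aldh1a1-dominant cells, where 3 wild-type cells were left, and the count of 1 became 2 in Aldh1a3-dominant cells. For Foxi1-high cells, the count of 2 in the wild type became 0 with a pseudocount of 10 and 1 with the log2 of the mean FPKM, without cells above 6000 listed genes and with a Foxi1 threshold of 50 FPKM. The count of 2 in the mutant became 0 with a pseudocount of 10. It became 1 with the log2 of the mean FPKM, with 3000 to 5000 listed genes, without cells above 6000 listed genes and without the cells with Y-linked transcripts. The share of wild-type cells in which Fxyd3 was the highest FXYD gene became 100% without cells above 6000 listed genes, from 96.3% over Foxi1-low epithelial cells and 93.8% over Aldh1a3-dominant cells. The causes were not tested.

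The share of all genes past the fold ranged from 1.69 to 24.8% over the alternatives for the genotype comparison and from 7.22 to 49.2% for Foxi1-high wild-type cells. The 3000 to 5000 setting could not be run for wild-type Foxi1-high cells, of which 0 remained. No paired analysis was possible because no replicate number or animal is given. With 1 sample per genotype, the spread between animals is unknown, and the 5 wild-type Foxi1-high and 9 wild-type Aldh1a1-dominant cells limit the precision of those comparisons. A transcript below 1 FPKM may be present but not captured.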
